A study of Rattus norvegicus with 23 samples.

Results

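The solute carriers described here belong to 8 families of tubule transport, the Slc5, Slc12, Slc13, Slc17, Slc20, Slc22, Slc34 and Slc47 genes. Members were all protein-coding genes of these families with at least 10 read counts in at least 3 of the 23 samples, and 34 of the 59 listed family genes, out of 30452 genes in the table, met this rule. They were measured by poly(A) RNA-sequencing in the epithelial line NRK-52E from rat kidney and in NRK-49F cells, a fibroblast line from rat kidney. Both lines were kept for 24 h without serum and then for 48 h in medium of pH 7.4 or of pH 6.0, the latter set with HCl. There were n = 6 samples of NRK-52E cells at each pH, n = 6 of NRK-49F cells at pH 7.4 and n = 5 at pH 6.0, and the labels name no genetic change in either line. Each line stands for its cell type as a single immortal culture without the tubule around it. The paper calls its samples biological, but nothing in the labels says that they were separate cultures. The p-values thus measure the spread between these samples, which may be technical.

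Solute carriers move ions and small organic molecules across membranes, often driven by the sodium gradient that the sodium pump sets up. In the kidney, the proximal tubule reclaims glucose, phosphate, sulfate, citrate and monocarboxylates through apical sodium cotransporters and secretes organic anions and cations through basolateral Slc22 uptake carriers and apical exchangers, while the thick ascending limb and the distal convoluted tubule reabsorb NaCl through cation-chloride cotransporters. Other members of these families are found in most cells, where they serve cell volume, phosphate supply, vitamins or carnitine.

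Total counts per sample ranged from 16412564 to 34250535. Levels are given as FPM, read counts per mega-count of the TMM-scaled library, and since they are not divided by gene length they are compared between samples of a gene and not between genes. A count of 3, taken as the detection floor, corresponds to 0.0839 to 0.203 FPM depending on the sample and covers counting error only. Of the 9 measured epithelial markers, 7 had means under 1 FPM in NRK-52E cells at both pH values, among them Cdh1 and Epcam, while Krt8 and Krt7 were present. At pH 7.4 Krt8 had a mean of 499 FPM in NRK-52E and 839 FPM in NRK-49F cells, so that the epithelial label rests on few markers. The fibroblast genes Pdgfra and Col1a2 lay at 179 FPM and above in every NRK-49F sample. In NRK-52E cells they were highest in the pH 7.4 sample A021, at 1.54% and 1.18% of the NRK-49F mean, but Pdgfra had 15 to 169 counts in the 6 samples of pH 7.4 and 0 to 2 in those of pH 6.0. In NRK-52E cells at pH 6.0, 8 of 9 tested fibroblast markers fell, 2 of 2 epithelial markers fell, and of 5 endothelial and immune markers 4 rose and 1 fell. Of all genes, 36.6% fell and 24.7% rose in these cells. The counts of markers were equal without A021. The summed level of the fibroblast list went from between 4979 and 8160 FPM at pH 7.4 to between 1842 and 3120 at pH 6.0. Most of it came from Col3a1, with means of 6149 and 2402 FPM, while Thy1 and Dcn were at 0 in every NRK-52E sample and Lum in every one of pH 6.0. The summed level of the epithelial list was 463 to 683 FPM at pH 7.4 and 199.5 to 265 at pH 6.0, and that of the endothelial and immune list was 14.6 to 24.5 and 10.7 to 14.3 FPM. Markers and carriers of NRK-52E cells thus both changed at pH 6.0, but whether they moved together was not tested. In NRK-49F cells, 2 of 2 epithelial and 3 of 9 fibroblast markers fell and none rose. Of 5 endothelial and immune markers, 1 rose there, Cd68, by 2.94 on the log2 scale, and none fell. The summed level of the latter list was 23.1 to 34.97 FPM at pH 7.4 and 219 to 253 at pH 6.0. The part of the markers in the carrier changes of either line was not tested. Of 16 proximal tubule markers, 11 had means under 1 FPM in NRK-52E cells at both pH values and Pck1 was at 0 counts in both lines. The summed level of this list was 119.5 to 127 FPM in NRK-52E cells at pH 7.4 and 43.4 to 145 at pH 6.0. In NRK-49F cells it was higher, at 441 to 661 and 1167 to 1631 FPM. Of 6 tested markers of this list, 1 rose and 2 fell in NRK-52E cells, beside 24.7% and 36.6% of all genes. In NRK-49F cells 2 rose and 1 fell, beside 14.5% and 14.4%. The log2 fold changes were 2.77 for Ggt1 and -1.20 for Dpp4 in NRK-49F cells, and -3.19 for Anpep in NRK-52E cells. All 10 tubule transcription factors listed, Hnf4a included, had means under 1 FPM in both lines. In such bulk samples, fewer cells that use a gene and less RNA per cell cannot be told apart.

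Carriers of most cells were measured far more often than those of the nephron. Of 15 family genes whose native expression is broad, 14 met the count rule, against 9 of 21 genes of the proximal tubule, 1 of 2 genes of the thick ascending limb and distal convoluted tubule, and 10 of 21 genes best known from other tissues. Native sites are textbook knowledge, since no kidney tissue was measured. Of the 25 genes below the rule, 6 were at 0 counts in every sample, among them the phosphate cotransporter Slc34a3, the sulfate cotransporter Slc13a1 and the monocarboxylate cotransporter Slc5a12. The thick ascending limb cotransporter Slc12a1 (NKCC2) reached 1 count in 1 sample, and the glucose cotransporter Slc5a1 (SGLT1) reached 22 counts in a single NRK-49F sample and at most 4 elsewhere. The organic cation carrier Slc22a2 (OCT2) had 1 to 18 counts in NRK-52E cells at pH 7.4, 0 to 4 at pH 6.0 and 0 in NRK-49F cells. Slc17a1, Slc17a5 and Slc22a4 were not analysed here. Of the 34 members, 21 had a count in every sample and 10 had at least 10 counts in every sample.

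**Figure D1:**
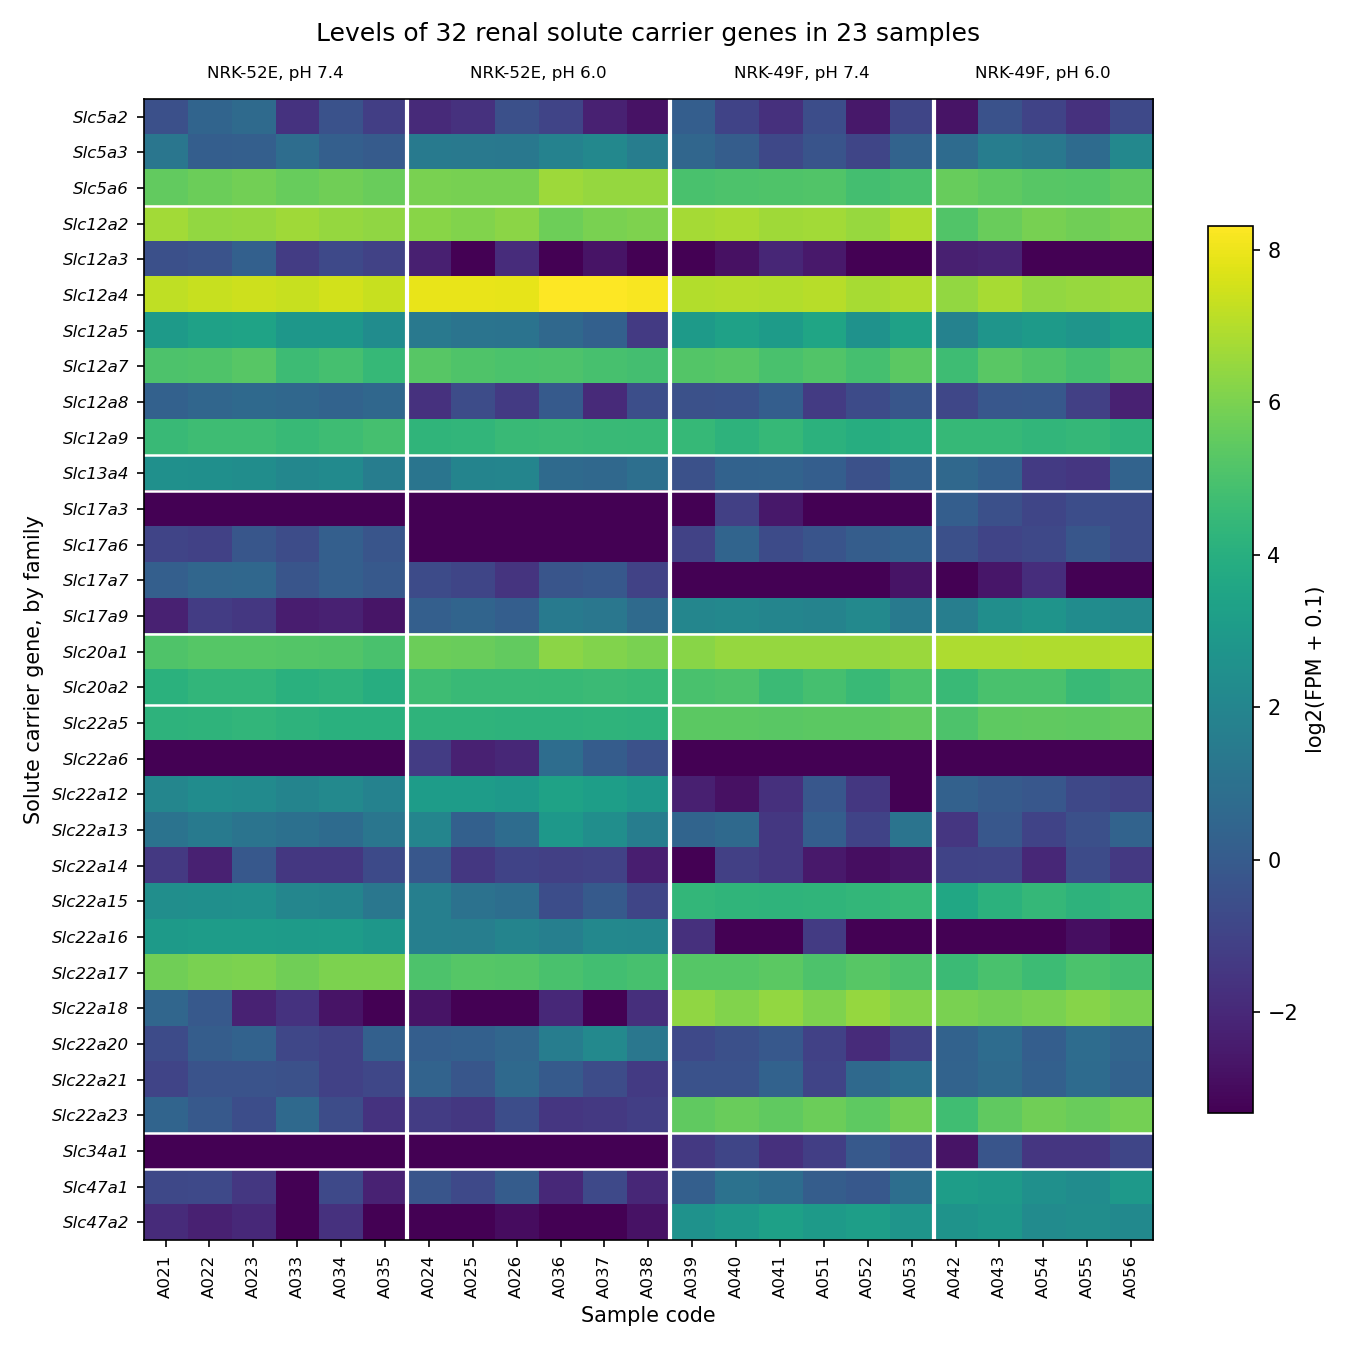
Colour gives log2(FPM + 0.1) of 32 of the carrier genes (rows, split by family) in each of the 23 samples (columns, split by cell line and pH). Slc22a18, Slc22a23 and Slc47a2 stand out in NRK-49F cells, Slc22a16 in NRK-52E cells, and Slc22a6 has counts only in the 6 NRK-52E samples of pH 6.0.

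After 48 h at pH 6.0, 22 of the 29 members that entered the model had changed in NRK-52E cells (8 rose, 14 fell), where 61.2% of all 14777 genes tested changed (24.7% up, 36.6% down). In NRK-49F cells 10 members had changed (6 rose, 4 fell), against 28.9% of all genes (14.5% up, 14.4% down). A change means an adjusted p under 0.05 in edgeR's quasi-likelihood test. The median log2 fold change of the members was -0.29 in NRK-52E and -0.16 in NRK-49F cells, beside -0.12 and 0.00 over all genes. With NRK-52E cells fitted alone, the median of all genes was -0.00 and 9 of 24 members rose and 10 fell, beside 30.5% and 31.8% of all genes. The acid responses of both lines differed for 14 members, with a more positive value in NRK-52E cells for 4 and a more negative one for 10, where 41.4% of all genes differed (16.8% and 24.7%), and without sample A021 this count was 10, beside 39.8% of all genes, with Slc22a18, Slc22a23, Slc47a1 and Slc47a2 lost.

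**Figure D2:**
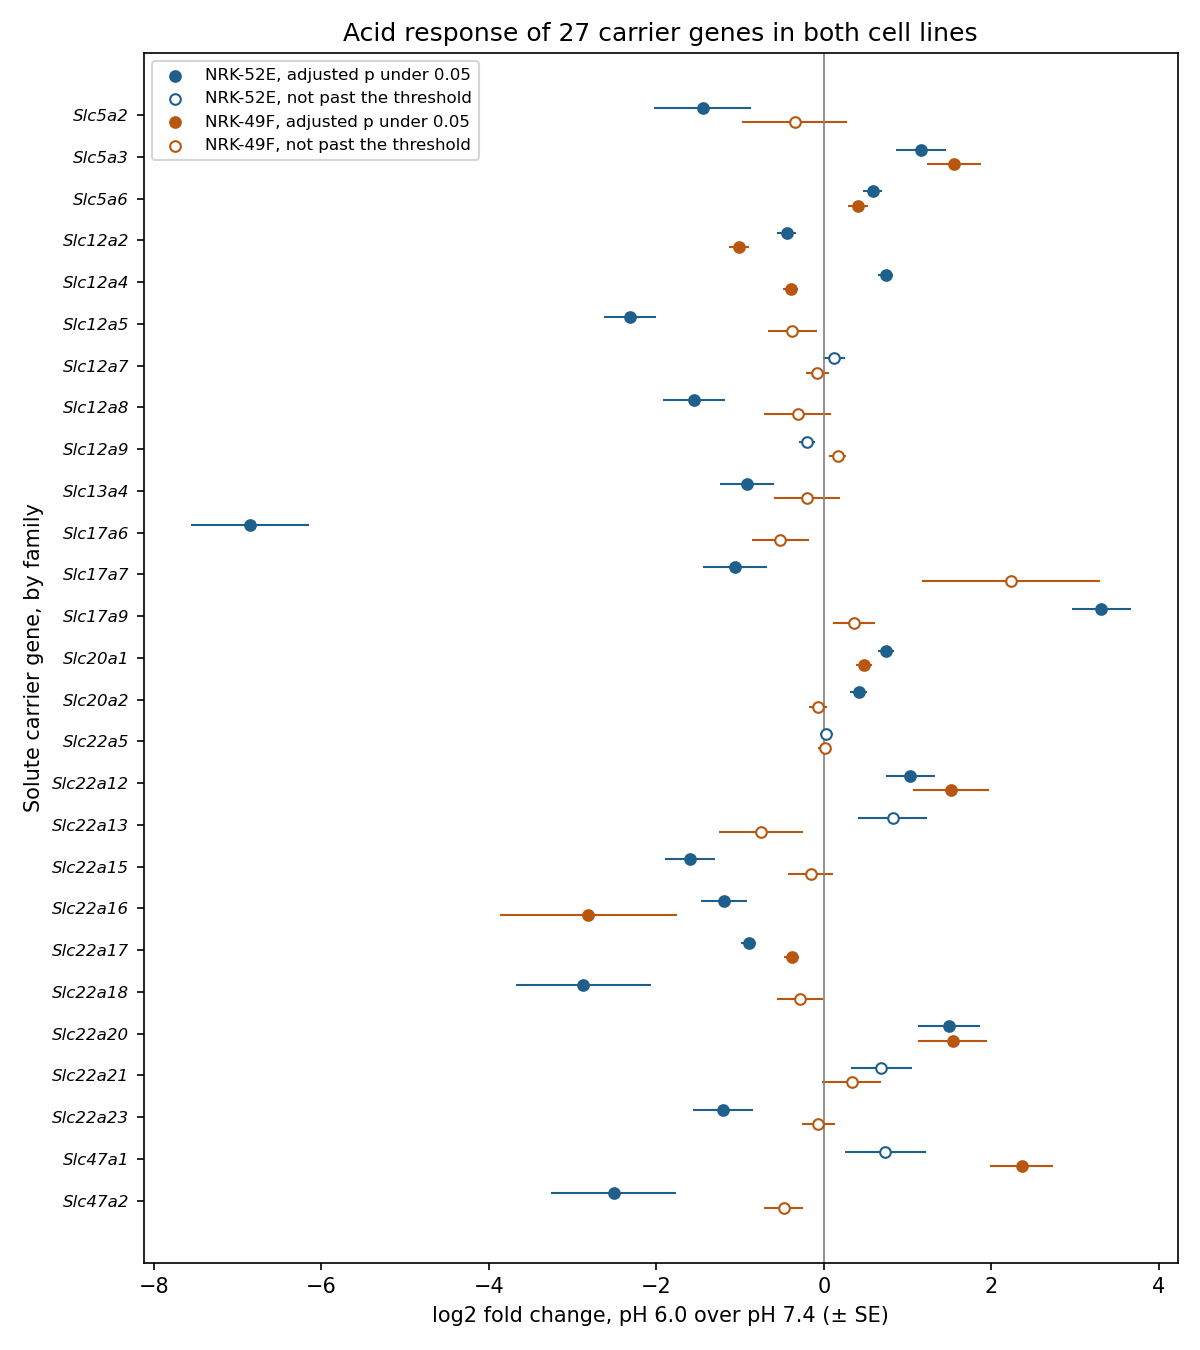
The log2 fold change from pH 7.4 to pH 6.0 with its SE is plotted for 27 carrier genes of the model in NRK-52E (blue) and NRK-49F cells (orange), filled where the adjusted p was under 0.05. Slc12a4 lies on opposite sides of 0 in both lines, and Slc17a9 and Slc47a1 show the largest rises of NRK-52E and NRK-49F cells, respectively.

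Of the cation-chloride cotransporters, Slc12a4 rose and Slc12a2 fell in the epithelial line, and both fell in the fibroblast line. Slc12a4 (KCC1, ENSRNOG00000019651), a K-Cl cotransporter that lets swollen cells lose salt and water, ranged in NRK-52E cells from 148 to 185 FPM (median 162) at pH 7.4 and from 236 to 318 (median 268) at pH 6.0. NRK-49F samples gave 109 to 133 FPM (median 125) at pH 7.4 and 84.8, 86.7, 92.2, 97.5 and 110.1 FPM at pH 6.0. The pH values did not overlap in NRK-52E cells and overlapped by 1 sample in NRK-49F cells. The log2 fold change was 0.74 ± 0.09 (SE, adjusted p = 1.13e-07) in NRK-52E and -0.39 ± 0.09 (adjusted p = 0.00209) in NRK-49F cells. The difference of 1.13 ± 0.13 passed the test (adjusted p = 1.95e-07). Slc12a4 was the 1 member called in both lines with opposite signs. The share of all genes called in this way was not counted, so it is not read as a trait of this carrier. By sample group in edgeR, the NRK-49F fall was -0.36 in the first (adjusted p = 0.211) and -0.42 in the second (adjusted p = 0.0335).

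Slc12a4 is the member with opposite responses in both lines, and the 300 bases around the start of its RefSeq entry (250 before and 50 after, build GRCr8) are shown, with capitals marking GC boxes on either strand. The window (chr19:50770073-50770372, minus strand) holds 5 GC boxes GGGCGG and is 74% GC with 31 CpG. Among 33469 such windows, GGGCGG occurs in 33.1%, and the medians are 51.7% GC and 7 CpG. The window does not hold the TATA box TATAAA, found in 14.2% of windows. The same is true of the CRE core TGACGT with 7.94% and of the E-box CACGTG with 6.42%. No motif overlapped another, and a match is a description of letters and not of binding. Of the 34 members, 26 have such a window.
Slc12a4: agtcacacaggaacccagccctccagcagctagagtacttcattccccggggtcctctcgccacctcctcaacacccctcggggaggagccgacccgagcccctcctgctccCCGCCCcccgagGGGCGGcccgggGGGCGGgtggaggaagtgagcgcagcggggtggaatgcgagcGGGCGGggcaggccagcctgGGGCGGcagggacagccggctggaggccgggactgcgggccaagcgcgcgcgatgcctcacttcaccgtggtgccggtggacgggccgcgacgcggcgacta

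Slc12a2 (NKCC1, ENSRNOG00000015971), the Na-K-2Cl cotransporter that loads cells with chloride and restores shrunken volume, fell in both lines. It lay between 82.4 and 103.0 FPM (median 89.6) in NRK-52E cells at pH 7.4 and between 52.8 and 78.0 (median 67.5) at pH 6.0. NRK-49F samples lay between 91.0 and 122 FPM (median 106) at pH 7.4 and at 35.8, 50.2, 55.5, 61.2 and 63.2 FPM at pH 6.0. The pH values did not overlap in either line. The fall was -0.44 ± 0.11 on the log2 scale in NRK-52E (adjusted p = 0.00175) and -1.01 ± 0.12 in NRK-49F cells (adjusted p = 1.01e-06), and it was larger in NRK-49F cells by 0.57 ± 0.17 (adjusted p = 0.00842). In the first sample group of NRK-52E cells the fall was -0.24, in the second -0.50.

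Among the other K-Cl cotransporters, Slc12a5 (KCC2), best known as the chloride extruder of neurons, fell in NRK-52E cells from 4.92 to 10.6 FPM (median 7.55) to 0.296 to 2.50 FPM (median 1.73), a log2 fold change of -2.32 ± 0.31 (adjusted p = 7.08e-07). Levels in NRK-49F cells were 5.99 to 11.2 FPM at pH 7.4 and 3.41 to 9.72 at pH 6.0 (-0.37 ± 0.29, adjusted p = 0.372), and the lines differed in this response by -1.94 ± 0.42 (adjusted p = 0.000685). Slc12a7 (KCC4), which shares volume regulation with KCC1, did not pass the test in either line, with log2 fold changes of 0.12 ± 0.13 in NRK-52E (adjusted p = 0.431) and -0.08 ± 0.14 in NRK-49F cells (adjusted p = 0.725). Its median levels in the 4 conditions lay between 31.2 and 35.7 FPM. Slc12a8, a distant family member, fell in NRK-52E cells (-1.55 ± 0.37, adjusted p = 0.000888), from 1.12 to 1.47 FPM down to 0.165 to 0.891 FPM. Slc12a9, another distant member, was called in neither line, but its responses differed between them by -0.36 ± 0.14 (adjusted p = 0.0378).

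Slc12a3 (NCC), the thiazide-sensitive Na-Cl cotransporter of the distal convoluted tubule, was too low for the model. It had 7 to 29 counts in NRK-52E cells at pH 7.4 (median 11) and 0 to 6 at pH 6.0 (median 0.5), without overlap, while NRK-49F samples held at most 2 counts. The 3 samples with 10 counts or more that made it a member were all of NRK-52E cells at pH 7.4, so that no test is given. Of the kinases, their adaptors and the ubiquitin ligases that act on these cotransporters, 2 of 8 tested rose and 3 fell in NRK-52E cells, and 2 fell in NRK-49F cells, beside 24.7%, 36.6% and 14.4% of all genes, respectively. Oxsr1, the kinase OSR1 that activates NKCC1 and inhibits K-Cl cotransporters, rose in NRK-52E (0.53 ± 0.08, adjusted p = 7.95e-06) and fell in NRK-49F cells (-0.26 ± 0.09, adjusted p = 0.0305). Nedd4l, a ubiquitin ligase of sodium transporters, fell in both (-0.72 ± 0.08 and -0.32 ± 0.08). Stk39, the related kinase SPAK, is among the 3 that fell in NRK-52E cells but had at most 4 counts there, at or under 0.112 FPM in every sample, against 3.43 FPM or above in every NRK-49F sample.

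**Figure D3:**
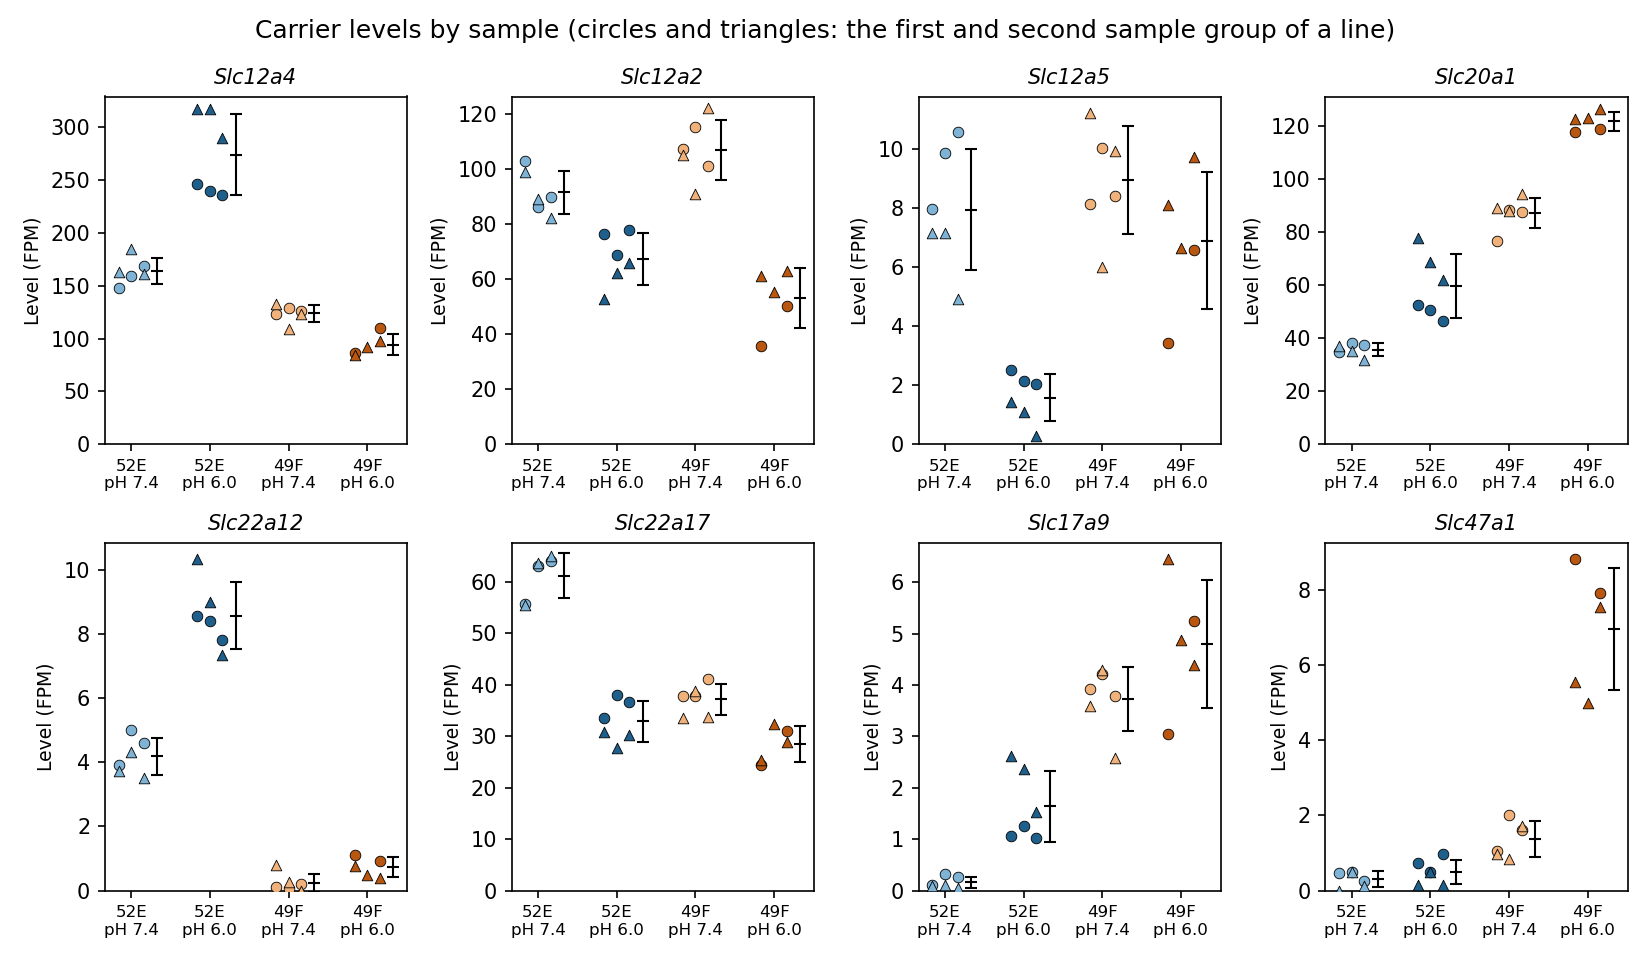
Levels in FPM of 8 carriers are shown for each sample of the 4 conditions, with mean and SD as bars and the first and second sample group of a line as circles and triangles. Slc12a4 rises in NRK-52E and falls in NRK-49F cells at pH 6.0, Slc12a2 is lower at pH 6.0 in both, and the second sample group of NRK-52E cells lies further from pH 7.4 than the first for Slc12a4 and Slc20a1.

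Both sodium-phosphate cotransporters of most cells were higher at pH 6.0 in the epithelial line. Slc20a1 (PiT1, ENSRNOG00000018567) ranged from 31.6 to 38.3 FPM (median 36.05) in NRK-52E cells at pH 7.4 and from 46.3 to 77.7 (median 57.2) at pH 6.0. Fibroblast samples ranged from 76.7 to 94.2 FPM (median 88.1) at pH 7.4 and were at 118, 119, 123, 123 and 126 FPM at pH 6.0. The pH values did not overlap in either line. The log2 fold changes were 0.74 ± 0.10 (adjusted p = 5.41e-07) and 0.48 ± 0.10 (adjusted p = 0.00072), and the difference of 0.26 ± 0.14 did not pass (adjusted p = 0.141). By sample group in edgeR, the NRK-49F rise was 0.49 in the first (adjusted p = 0.0696) and 0.44 in the second (adjusted p = 0.0102). Slc20a2 (PiT2) went up in NRK-52E cells from 15.1 to 20.1 FPM (median 17.8) to 22.8 to 25.8 FPM (median 23.5), a log2 fold change of 0.42 ± 0.10 (adjusted p = 0.00113). The fibroblasts lay at 23.8 to 33.2 FPM at pH 7.4 and 23.5 to 31.3 at pH 6.0 (-0.07 ± 0.11, adjusted p = 0.658), and the responses differed by 0.49 ± 0.15 (adjusted p = 0.0101).

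Slc34a1 (NaPi-IIa), the main apical phosphate cotransporter of the proximal tubule, was at 0 counts in all 12 NRK-52E samples. The fibroblasts had 3 to 26 counts at pH 7.4 (median 9.5) and 1, 7, 7, 8 and 12 counts at pH 6.0, with a log2 fold change of -0.43 ± 0.58 that did not pass (adjusted p = 0.691). This value comes from the fit without a count filter, in which 42.5% of 22243 genes were called in the epithelial and 17.9% in the fibroblast line. Of 6 tested partners of phosphate transport, 4 fell in NRK-52E and 3 in NRK-49F cells and none rose, where 36.6% and 14.4% of all genes fell. The scaffold Slc9a3r1 (NHERF1), which holds NaPi-IIa at the brush border, fell by 1.64 ± 0.14 in NRK-52E (adjusted p = 8.13e-10) and by 1.07 ± 0.15 in NRK-49F cells (adjusted p = 6.64e-06). Xpr1, the phosphate exporter, had log2 fold changes of -0.20 ± 0.30 and -0.10 ± 0.31 that did not pass.

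The apical exit carriers for organic cations, which exchange them for protons, were higher in the fibroblast line at both pH values. Slc47a1 (MATE1, ENSRNOG00000057404) ranged from 0.832 to 2.002 FPM (median 1.34) in NRK-49F cells at pH 7.4 and was 4.98, 5.56, 7.56, 7.93 and 8.82 FPM at pH 6.0. All samples of pH 6.0 lay above those of pH 7.4, and the log2 fold change was 2.36 ± 0.38 (adjusted p = 4.07e-05), the largest rise of a member of the model in NRK-49F cells. In NRK-52E cells it had 0 to 17 counts at pH 7.4 and 3 to 33 at pH 6.0 (0.73 ± 0.48, adjusted p = 0.195). The difference between the responses, -1.63 ± 0.63 (adjusted p = 0.0403), was lost in 13 of 23 fits that left out 1 sample, A021 among them (-1.40, adjusted p = 0.107). Slc47a2 (MATE2) ranged from 6.02 to 9.74 FPM in NRK-49F cells at pH 7.4 and from 4.56 to 7.13 at pH 6.0 (-0.48 ± 0.23, adjusted p = 0.132). This fall passed in DESeq2 (-0.49, adjusted p = 0.0249), with NRK-49F cells fitted alone in edgeR (-0.49, adjusted p = 0.0327) and in the second sample group (-0.70, adjusted p = 0.0295). In NRK-52E cells it had 0 to 6 counts at pH 7.4 and 0 to 1 at pH 6.0, the former up to 2.81% of the NRK-49F mean, and since both means lie under the floor no fold change is given.

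Of the efflux pumps that serve the same secretion, 2 of 8 rose and 2 fell in NRK-52E cells, beside 24.7% and 36.6% of all genes, and 1 rose and 1 fell in NRK-49F cells, beside 14.5% and 14.4%. Abcc4 (MRP4), an apical pump for organic anions and nucleotides, increased in NRK-52E cells from 3.68 to 10.9 FPM up to 29.5 to 44.5 FPM (2.28 ± 0.24, adjusted p = 1.68e-08). The rise in NRK-49F cells was 0.97 ± 0.23 (adjusted p = 0.0026), and the responses differed by 1.31 ± 0.33 (adjusted p = 0.00249). Abcc5 (MRP5), a pump for cyclic nucleotides, fell in both lines (-0.46 ± 0.16 and -0.97 ± 0.17).

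The basolateral organic anion carriers of the proximal tubule appeared in the epithelial line at pH 6.0 at very low levels. Slc22a6 (OAT1, ENSRNOG00000018215), the para-aminohippurate carrier, had 0 counts in all 6 NRK-52E samples of pH 7.4 and in all 11 NRK-49F samples. At pH 6.0 the NRK-52E samples had 2, 5 and 6 counts in the first sample group and 13, 17 and 32 in the second, so that the groups of pH 7.4 and pH 6.0 did not overlap. Its mean at pH 6.0 was 0.638 FPM, most of it from the second sample group, while the first lay near the floor of 3 counts per sample. No test is given, since the 3 samples with 10 counts or more that made it a member are all of this condition. Slc22a8 (OAT3), which shares many substrates with OAT1, fell below the count rule and lies beside Slc22a6 on chromosome 1, where the RefSeq span of Slc22a25, an orphan carrier with at most 4 counts in a sample, overlaps both. It had 0 to 1 counts at pH 7.4, and at pH 6.0 it had 0, 1 and 2 counts in the first and 2, 14 and 26 in the second sample group, with overlap, and it had 0 in NRK-49F cells. The citrate and dicarboxylate carrier Slc13a3 (NaDC3), which supplies the anion that OAT1 and OAT3 exchange, had 0 to 3 counts at pH 7.4 and 0 to 13 at pH 6.0 in these cells and did not pass (adjusted p = 0.0651).

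**Figure D4:**
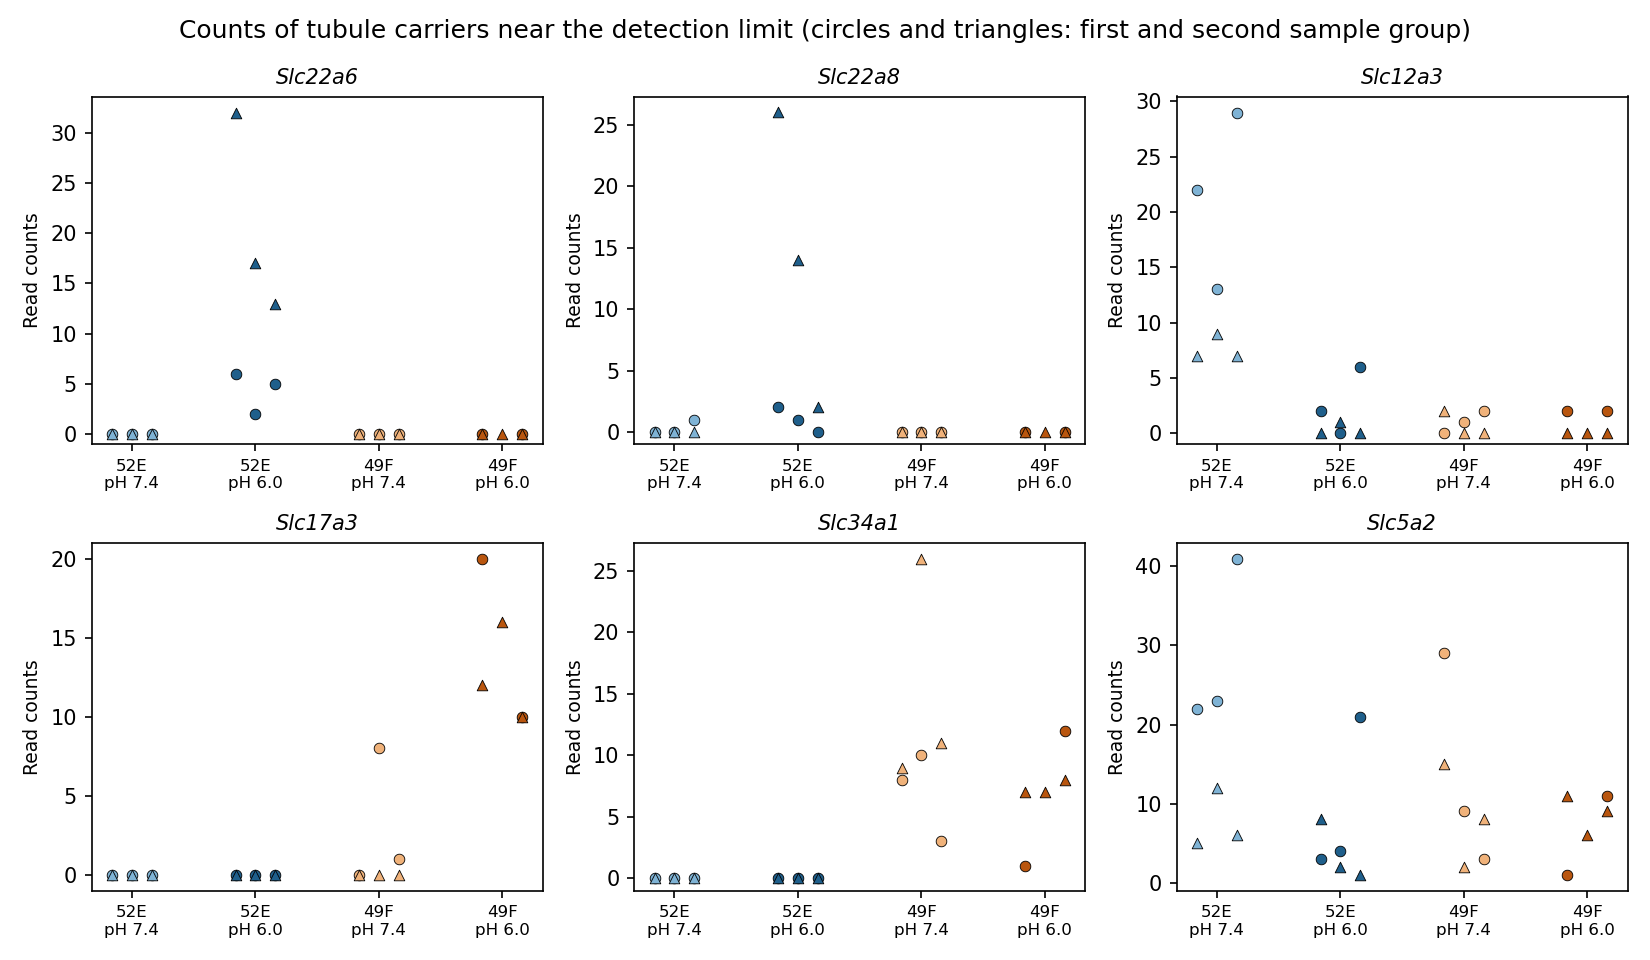
Read counts of 6 low-level carriers of the native tubule are shown for each sample of the 4 conditions, with the first and second sample group as circles and triangles. Slc22a6 and Slc22a8 have their highest counts, 32 and 26, in the same sample of the second group of NRK-52E cells at pH 6.0, while Slc17a3 and Slc34a1 are at 0 in NRK-52E cells.

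The apical exchanger Slc22a12 (URAT1, ENSRNOG00000021108), which reabsorbs urate against organic anions, rose in both lines. In NRK-52E cells it ranged from 3.51 to 5.00 FPM (median 4.11, 62 to 140 counts) at pH 7.4 and from 7.35 to 10.3 (median 8.48, 149 to 268 counts) at pH 6.0, without overlap (1.03 ± 0.29, adjusted p = 0.00393). The fibroblasts had 0 to 21 counts at pH 7.4 and 7, 13, 15, 21 and 22 counts at pH 6.0 (1.52 ± 0.46, adjusted p = 0.0143). Sample A051 held the 21 counts of pH 7.4, and without it the log2 fold change was 2.44. In the first sample group the samples of pH 7.4 held 1 to 3 counts, at or under the floor, and those of pH 6.0 held 15 to 22, while in the second the log2 fold change was 0.56 (adjusted p = 0.729), and with NRK-49F cells fitted alone it did not pass (1.52, adjusted p = 0.0775). Other urate carriers stood beside it: Slc2a9 (GLUT9), the basolateral exit of urate, was at 0 in NRK-52E cells and rose in NRK-49F cells from 1.199 to 2.728 FPM up to 4.03 to 5.67 FPM (1.08 ± 0.23, adjusted p = 0.00331). Slc17a3 (NPT4), an apical anion and urate carrier, was at 0 in NRK-52E cells too. NRK-49F samples had 0, 0, 0, 0, 1 and 8 counts at pH 7.4 and 10, 10, 12, 16 and 20 counts at pH 6.0. It became a member through the latter 5 samples alone, so that no test is given.

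Slc22a13 (OAT10), an apical anion carrier for nicotinate and urate, did not pass in either line. It ranged in NRK-52E cells from 1.58 to 2.58 FPM (median 2.08) at pH 7.4 and from 1.09 to 7.33 (median 3.37) at pH 6.0 (0.82 ± 0.41, adjusted p = 0.0853). By sample group the change was 0.02 in the first and 1.53 in the second (adjusted p = 0.00312), and leaving out A025 or A026 brought the call. NRK-49F samples lay at 0.270 to 2.102 FPM and 0.255 to 1.22 FPM (-0.75 ± 0.50, adjusted p = 0.283). Slc22a20 (OAT6), an anion carrier best known from the olfactory mucosa, rose in both lines, by 1.49 ± 0.37 (adjusted p = 0.00128) and 1.54 ± 0.41 (adjusted p = 0.00652), from 5 to 31 counts at pH 7.4 to 19 to 78 at pH 6.0. In NRK-52E cells its rise was 0.48 in the first sample group (adjusted p = 0.257) and 2.41 in the second.

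Carnitine carriers did not move together. Slc22a5 (OCTN2), the sodium-carnitine cotransporter, had the smallest change of the 29 modelled members in NRK-52E cells, with medians of 18.3 and 18.5 FPM at pH 7.4 and pH 6.0 and a log2 fold change of 0.03 ± 0.08 (adjusted p = 0.741), and in NRK-49F cells the change was 0.01 ± 0.08 (adjusted p = 0.932). Slc22a21 (OCTN3), its rodent paralog, whose reads the counting of multi-mapping reads may share with Slc22a5, was called in neither line. Slc22a16 (CT2), a carnitine carrier best known from the testis, fell in NRK-52E cells from 7.08 to 8.56 FPM (median 8.38) to 3.06 to 4.19 FPM (median 3.45), without overlap (-1.19 ± 0.28, adjusted p = 0.000669). In NRK-49F cells it had 0 to 8 counts at pH 7.4 and 0 to 1 at pH 6.0, and the call there (adjusted p = 0.0481) was lost in 18 of 23 fits that left out 1 sample. Slc22a15, a carrier of carnitine and zwitterions, fell in NRK-52E cells (-1.60 ± 0.30, adjusted p = 7.44e-05) but not beyond the spread in NRK-49F cells (-0.16 ± 0.27), a difference of -1.44 ± 0.40 (adjusted p = 0.00595).

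Slc22a17 (24p3R), a receptor for the iron-carrier protein lipocalin-2 that is also found in the distal nephron, fell in both lines. It ranged from 55.5 to 64.9 FPM (median 63.4) in NRK-52E cells at pH 7.4 and from 27.6 to 38.02 (median 32.2) at pH 6.0. NRK-49F samples ranged from 33.5 to 41.1 FPM (median 37.8) at pH 7.4 and were at 24.4, 25.4, 28.8, 31.0 and 32.4 FPM at pH 6.0. The pH values did not overlap in either line. The log2 fold changes were -0.90 ± 0.09 (adjusted p = 6.96e-09) and -0.39 ± 0.09 (adjusted p = 0.00301), the fall being larger in NRK-52E cells by 0.51 ± 0.13 (adjusted p = 0.00254). Fitted by sample group in edgeR, the NRK-49F fall passed in neither group (-0.49 and -0.30, adjusted p = 0.129 and 0.135). The orphan carriers Slc22a18 and Slc22a23 were genes of NRK-49F cells, with medians of 76.5 and 47.6 FPM at pH 7.4, and neither changed there past the threshold. Their falls in NRK-52E cells (-2.87 ± 0.81 and -1.21 ± 0.36) rest on 0 to 47 counts. Relative to the NRK-49F mean, Slc22a18 was highest in A021, at 1.70%, and fell by 1.87 without this sample (adjusted p = 0.0433). Slc22a23 was highest in A033, at 2.98%, followed by A021 at 2.52%, and its fall was -0.99 without A033 (adjusted p = 0.0196) and -1.01 without A021 (adjusted p = 0.0239). Slc22a14, an orphan as well, had at most 22 counts in a sample and was called in neither line without a count filter.

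Vesicular carriers of the Slc17 family changed strongly in the epithelial line from low levels. Slc17a9 (VNUT, ENSRNOG00000010275), which fills vesicles with ATP for release, ranged in NRK-52E cells from 0.0566 to 0.323 FPM (median 0.111, 1 to 7 counts) at pH 7.4 and from 1.02 to 2.62 (median 1.39, 20 to 50 counts) at pH 6.0. The log2 fold change of 3.31 ± 0.35 (adjusted p = 2.14e-08) was the largest rise of a member in the model. It was 2.41 in the first sample group, while in the second the samples of pH 7.4 held 1 to 2 counts, under the floor of 3, and those of pH 6.0 held 31 to 50. In NRK-49F cells Slc17a9 lay at 2.59 to 4.29 FPM (median 3.85) and at 3.06, 4.39, 4.87, 5.24 and 6.45 FPM (0.36 ± 0.25, adjusted p = 0.309). The responses differed by 2.95 ± 0.44 (adjusted p = 1.06e-05), and at pH 6.0 the level in NRK-52E cells was still lower than in NRK-49F cells (-1.56 ± 0.27, adjusted p = 1.09e-05). Slc17a6 (VGLUT2), a vesicular glutamate carrier, had 7 to 20 counts in NRK-52E cells at pH 7.4 and 0 in all 6 samples of pH 6.0, at least 4.39-fold lower against the floor of 3 counts per sample. NRK-49F samples had 8 to 29 and 7 to 21 counts and did not pass (adjusted p = 0.275). Slc17a7 (VGLUT1) fell in NRK-52E cells (-1.06 ± 0.38, adjusted p = 0.0199) from 15 to 38 counts to 8 to 15, with a change of -1.65 in the first sample group and a change of -0.34 in the second (adjusted p = 0.487), and NRK-49F samples held at most 5 counts.

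Of the sodium cotransporters for sugars, vitamins and sulfate, Slc5a6 (SMVT), which takes up biotin and pantothenate, rose in both lines. It ranged from 46.4 to 57.0 FPM (median 50.5) in NRK-52E cells at pH 7.4 and from 60.1 to 98.7 (median 76.7) at pH 6.0 (0.58 ± 0.11, adjusted p = 9.35e-05). In NRK-49F cells it ranged from 28.5 to 35.2 FPM (median 31.9) at pH 7.4 and was 38.3, 39.02, 42.6, 43.8 and 48.8 FPM at pH 6.0 (0.40 ± 0.12, adjusted p = 0.0123), and the pH values overlapped in neither line. In NRK-52E cells its rise was 0.33 in the first and 0.94 in the second sample group. The NRK-49F rise passed in neither sample group alone (0.48 and 0.35, edgeR adjusted p = 0.0871 and 0.0895). Slc5a3 (SMIT1), the myo-inositol cotransporter that hypertonicity raises in the medulla, rose from 7 to 81 counts at pH 7.4 to 31 to 82 at pH 6.0 over both lines, with log2 fold changes of 1.16 ± 0.30 (adjusted p = 0.00163) and 1.56 ± 0.32 (adjusted p = 0.000702), and its levels in FPM did not overlap between pH values in either line. In the RefSeq annotation it lies inside the span of Mrps6, so that reads of both genes may be counted together. The other osmolyte genes gave 1 rise of 5 tested in each line, beside 24.7% and 14.5% of all genes, Hspa4l, a heat shock protein of the Hsp110 family, in NRK-52E (1.08 ± 0.17) and Akr1b1, the aldose reductase that makes sorbitol, in NRK-49F cells (0.67 ± 0.17).

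Slc5a2 (SGLT2), the glucose cotransporter of the early proximal tubule, fell in NRK-52E cells from 5 to 41 counts (median 17) to 1 to 21 counts (median 3.5), with overlap. Its log2 fold change was -1.45 ± 0.58 (adjusted p = 0.0345), and the call was lost in 6 of 23 fits that left out 1 sample (A022, A023, A024, A025, A037 or A038). In NRK-49F cells it had 2 to 29 and 1 to 11 counts (-0.35 ± 0.62, adjusted p = 0.723). Of 10 tested facilitative hexose and urate carriers, 3 rose and 4 fell in NRK-52E cells, beside 24.7% and 36.6% of all genes, and 2 rose and 3 fell in NRK-49F cells, beside 14.5% and 14.4%. The fructose carrier Slc2a5 (GLUT5) fell by 1.16 ± 0.17 and 1.17 ± 0.18, and Slc2a6 (GLUT6), a lysosomal member, rose in NRK-52E cells by 1.43 ± 0.11 (adjusted p = 5.68e-11). Slc13a4 (NaS2), a sulfate cotransporter and the 1 Slc13 member, fell in NRK-52E cells from 2.94 to 5.54 FPM (median 4.90) to 1.43 to 3.84 FPM (median 2.03), with overlap (-0.92 ± 0.32, adjusted p = 0.0157). NRK-49F samples lay at 0.630 to 1.22 FPM and 0.253 to 1.43 FPM (-0.20 ± 0.40, adjusted p = 0.750).

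Differences between the lines were tested at each pH. At pH 7.4, 11 of 29 members were higher in NRK-52E and 10 in NRK-49F cells, where 68.8% of all genes differed (35% higher in NRK-52E and 33.9% in NRK-49F cells), and at pH 6.0 the counts were again 11 and 10, where 75.5% of all genes differed (36.6% and 38.9%). Of these, 17 members differed at both pH values with the same sign, 9 toward the epithelial and 8 toward the fibroblast line. The share of all genes that did so was not counted, so these 17 are not read as a trait of the carriers. Among those higher in NRK-52E cells were Slc12a4, Slc13a4, Slc22a12, Slc22a16, Slc22a17 and Slc5a6, and among those higher in NRK-49F cells were Slc17a9, Slc20a1, Slc22a5, Slc47a1 and Slc47a2. Of these, Slc22a16 and Slc47a2 became members through samples of the higher line alone, so that no conclusion is drawn from their line calls. At pH 7.4, Slc22a16 had 125 to 289 counts in NRK-52E and 0 to 8 in NRK-49F cells. Its NRK-49F mean of 0.0855 FPM lay under the floor of 0.136, so that no fold change is given. Slc22a23 differed at this pH by -5.84 ± 0.26 on the log2 scale (adjusted p = 1.05e-15, edgeR). Slc12a7, Slc22a20, Slc5a2 and Slc5a3 differed past the threshold at neither pH. Some members differed between the lines at 1 pH: Slc12a2 did not differ past the threshold at pH 7.4 (-0.22 ± 0.11, adjusted p = 0.0847) and was higher in NRK-52E cells at pH 6.0 (0.34 ± 0.12, adjusted p = 0.0136). For Slc12a5 the values were -0.17 ± 0.28 (adjusted p = 0.604) and -2.11 ± 0.32 (adjusted p = 2.04e-06).

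The labels split each line into sample groups, 1 and 3 for NRK-52E and 4 and 6 for NRK-49F cells, without saying what they are. Of 23 members tested in both groups of NRK-52E cells, 23 kept the sign of the acid response and 17 had the larger absolute change in the second group. Over all 13293 genes tested in both, 82.1% kept their sign and 66% were larger in the second group. Of the 14 members called in both groups, 13 were larger in the second, Slc22a16 being the exception, against 77.1% of the 6322 genes called in both, so that the larger change in the second group was shared by genes at large. Of 28 members tested in both groups of NRK-49F cells, 23 kept their sign, beside 79.6% of 13585 genes, and Slc12a2 and Slc47a1 were called in both, as were 7.49% of the genes. These groups hold 3 or fewer samples of each pH, and how they differ was not tested.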

How the data were processed

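The carrier members and gene lists were chosen with earlier results of these data known. The authors aligned paired poly(A) reads with HISAT2 2.1.0 and assigned them to genes of Ensembl 105 by featureCounts, keeping reads that map to several places, and deposited raw counts, with the rat build named as rn7 in the methods and rn6 in the labels' processing notes. The strand setting is not given in the sources used here. The 23 labelled samples (16412564 to 34250535 counts) were used, and 13 columns that matched no label were not. Genes passing filterByExpr (minimum count 10, minimum total 15) were fitted with edgeR 4.0.16 (R 4.3.3), TMM scaling and the quasi-likelihood test, 1 model of 4 conditions over all samples, with Benjamini-Hochberg adjusted p over 14777 genes and 0.05 as threshold. SE is the absolute log2 fold change divided by the root of the F statistic. A few genes are not reported here, though counts over the members include them. Members outside the model were taken from a fit of all 22243 genes with a count. Named genes were members called in an acid contrast at a mean of 5 FPM or more without overlap, the highest member of each family, tubule carriers and members with opposite calls; other members and the tubule genes below the count rule were named after their values were seen. Other pathway genes are those that passed the test and moved furthest up or down within their list in either line, some with values of the other line, and Xpr1 was chosen after its values were seen. Tested on simulated data of 14411 genes, the fit found 187 of 200 changed genes for NRK-52E cells with 3 others. The changed genes were few, left out the lowest levels, and came without a difference between the lines. Scaling when most genes change and the recovery of genes near the floor were thus not tested. Alternatives were other scalings, filters and thresholds, DESeq2 1.42.0, the sample group as a term within each line, each line or sample group alone, and each sample left out.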

Additional observations from a re-analysis of the deposited data

Results flagged for a closer look

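A stray sample was found in 5 of 69 groups of values tested, where chance gives about 1 in 20. That rate does not hold for groups with a median of 0 counts, which in NRK-49F cells were Slc17a3 at pH 7.4 and Slc22a16 at pH 6.0. In NRK-49F cells at pH 7.4, Slc22a12 was highest in A051, at 0.796 FPM, and without this sample the acid response was 2.44 (adjusted p = 7.99e-05, edgeR) and its difference between the lines was -1.41 (adjusted p = 0.0196), which did not pass with it. Slc17a3 was highest in A040 at pH 7.4, with 0.356 FPM, and in A042 at pH 6.0, with 1.02 FPM. Slc22a16 was lowest in A035 among NRK-52E samples of pH 7.4, with 7.08 FPM, and highest in A055 among NRK-49F samples of pH 6.0, with 0.0361 FPM from 1 count.

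In edgeR's test of the difference, the acid response differed between the lines for 8 of the 19 named members. Of these 19, Slc12a3, Slc17a3, Slc22a6 and Slc34a1 were outside the model and could not be called. Among all 14777 genes tested, 41.4% differed, so that the shares are not over like sets. Differences are NRK-52E minus NRK-49F on the log2 scale. The difference was 2.95 for Slc17a9, 1.13 for Slc12a4, 0.57 for Slc12a2 and 0.49 for Slc20a2. It was -2.03 for Slc47a2, -1.94 for Slc12a5, -1.63 for Slc47a1 and -0.51 for Slc22a17. For Slc47a1 and Slc47a2 it did not pass without A021 (adjusted p = 0.107 and 0.088), and in NRK-52E cells Slc47a2 rests on 0 to 6 counts at pH 7.4 and 0 to 1 at pH 6.0.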

How the results depend on the processing

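Samples carry no replicate numbers that groups share, but each sample group holds both pH values of a line. With the sample group as a block within each line, the acid response was called for 23 members in the epithelial and 9 in the fibroblast line and the difference for 15, beside 63.6%, 33.4% and 44.9% of all genes, and the NRK-49F call of Slc22a16 was lost (adjusted p = 0.0517, edgeR). Of the 10 members with at least 10 counts in every sample, 6 were called for acid in NRK-52E and 5 in NRK-49F cells, 5 for the difference, and 8 and 6 between the lines at pH 7.4 and pH 6.0, beside 63.3%, 31.1%, 45.6%, 66.8% and 74.5% of the 11185 genes of this filter. The first sample group of NRK-49F cells alone gave 3 calls, beside 8.7% of all genes, and an adjusted p under 0.01 left 7 members for the difference, beside 28.9%. Leaving out 1 sample gave 21 to 23 calls for acid in NRK-52E cells, 9 to 10 in NRK-49F cells, 10 to 16 for the difference, 20 to 23 between the lines at pH 7.4 and 20 to 22 at pH 6.0. The remaining 147 counts of members stayed within 1.5 times the reported ones. Of the log2 fold changes under alternatives, 1316 kept direction and side of the threshold, 66 lost and 16 gained a call, and 5 turned, none of these 5 from a called value. The NRK-49F response of Slc5a2 turned to 0.0717 in the second sample group and ranged from -0.64 to 0.10 with 1 sample left out, and that of Slc13a4 was 0.36 in the first sample group and ranged from -0.50 to 0.0590. The cause was not tested. The difference of Slc47a2 was lost in 9 of 23 fits with 1 sample left out. Carriers under about 10 counts per sample are limited by depth, and no level can be set against native tubule, which was not measured.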
